A study of Homo sapiens with 4 samples.

Results

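The genes of the polyol pathway and of fructose metabolism, AKR1B1, AKR1B10, SORD, KHK and TKFC, are described here. They were taken by gene symbol from the deposited table of counts, in which all 5 members were found among 59652 genes. Huh7 and PLC (PLC/PRF/5) are established hepatocellular carcinoma (HCC) cell lines, both labelled wild type (WT), and both are normally kept in 25 mM glucose. For RNA-seq, each line was cultured for 48 h in glucose-free DMEM with 10% fetal bovine serum, to which glucose was added to 5 mM (low glucose) or 25 mM (high glucose). A single library was sequenced for each line and glucose concentration, so the 4 libraries hold no replicate culture and no glucose difference within a line has a replicate check. The study used these libraries to look for long non-coding RNAs that respond to glucose in HCC cells.

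The polyol pathway makes fructose from glucose inside the cell. Aldose reductase, encoded by AKR1B1, reduces glucose to sorbitol, and sorbitol dehydrogenase, encoded by SORD, oxidises sorbitol to fructose. Ketohexokinase (KHK) then phosphorylates fructose to fructose-1-phosphate, which is then cleaved, and triokinase, encoded by TKFC, phosphorylates the glyceraldehyde that is released. AKR1B10 encodes a close relative of aldose reductase that reduces retinal and lipid aldehydes and is known for its high level in many liver tumours. In the liver the steps from KHK onward, with the transporter GLUT2 (SLC2A2) at their entrance, are the main way of using dietary fructose.

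On hg38, AKR1B1 (ENSG00000085662.14) lies on the minus strand at chr7:134442356-134459284. AKR1B10 (ENSG00000198074.10) lies 68282 bases from it on the plus strand, at chr7:134527567-134541412. SORD (ENSG00000140263.15) is at chr15:45023147-45077185, KHK (ENSG00000138030.14) at chr2:27086747-27100762 and TKFC (ENSG00000149476.16) at chr11:61333210-61353295, all on the plus strand. The positions are those of the annotated genes in GENCODE 44.

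KHK is made in more than 1 form, and the choice of form matters for how its values read. Its transcripts carry 1 of 2 neighbouring exons of 135 bases. The upstream exon is that of KHK-A, the widely made form with low affinity for fructose, and the downstream exon is that of KHK-C, the form of the liver with high affinity. Both coding exons are printed from hg38, plus strand, 5′ to 3′, with capitals for the bases at which they differ. The first is at chr2:27094477-27094611 (transcript KHK-202) and the second at chr2:27094800-27094934 (transcript KHK-201).
KHK-202: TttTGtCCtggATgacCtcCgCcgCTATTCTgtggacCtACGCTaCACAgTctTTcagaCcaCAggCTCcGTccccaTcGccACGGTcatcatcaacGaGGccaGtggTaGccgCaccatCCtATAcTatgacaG
KHK-201: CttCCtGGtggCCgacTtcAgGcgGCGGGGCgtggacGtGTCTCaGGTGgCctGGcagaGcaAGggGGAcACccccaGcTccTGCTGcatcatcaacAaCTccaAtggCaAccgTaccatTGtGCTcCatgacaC
The exons share 76 of 135 bases (56.3%) and differ at 59. The deposited count of KHK adds the reads of the whole gene, so the values given here are the sum of both forms and do not tell them apart.

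Reads counted on genes came to between 16049686 and 30279716 per library, with the smallest library from PLC cells at 25 mM. Levels are given as FPKM, the reads of a gene scaled by its length in the table and by the total of the library, with exact Poisson 95% intervals that cover counting error only. The 8 markers of hepatocytes and liver tumour cells, called hepatocyte markers here, summed to 4775 and 4910 FPKM in Huh7 cells at 5 and 25 mM. In PLC cells they summed to 646 and 1419 FPKM. Most of the sum in PLC cells came from AFP (306 and 1011 FPKM) and APOB (220 and 231 FPKM), while APOA1 had 0.783 and 2.96 FPKM there. TTR (transthyretin), one of those markers, had 4 reads and 0 reads in PLC cells at 5 and 25 mM. Markers of fibroblasts, endothelium and leukocytes summed to between 0.190 and 2.78 FPKM over 6 genes, of which PECAM1 in Huh7 cells held most, while VWF and CD68 had 2 reads or fewer in every library. In bulk RNA, fewer cells of a type and less RNA per cell cannot be told apart.

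AKR1B1, the entry to the polyol pathway, had the lower levels in PLC cells. The Huh7 libraries held 402 and 584 of its reads at 5 and 25 mM, and the PLC libraries held 369 and 131. These stand for 5.15 (4.66 to 5.67) and 5.31 (4.89 to 5.76) FPKM in Huh7 cells. In PLC cells they stand for 3.34 (3.003 to 3.69) and 2.23 (1.87 to 2.65) FPKM. Both Huh7 libraries were above both PLC libraries, and the lowest level was that of PLC cells at 25 mM. The 7 pseudogenes named after AKR1B1 had 15 and 20 reads in all in Huh7 cells and 0 reads in PLC cells.

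AKR1B10 stood furthest apart between the lines. Its reads numbered 487 and 290 in the Huh7 libraries at 5 and 25 mM, but 12 and 15 in those of PLC cells. Its level was 12.85 (11.7 to 14.0) and 5.44 (4.83 to 6.10) FPKM in Huh7 cells. In PLC cells it was 0.224 (0.115 to 0.390) and 0.527 (0.295 to 0.869) FPKM. AKR1B10 was thus the highest of the 5 members in Huh7 cells at 5 mM and the lowest of them in both PLC libraries. AKR1B15, the paralog 7697 bases beyond AKR1B10, had 5 reads or fewer in every library, and 2 AKR1B10 pseudogenes had 2 reads or fewer in all.

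SORD, which turns sorbitol into fructose, was likewise higher in Huh7 cells. Of its reads, 1042 and 1661 came from Huh7 cells at 5 and 25 mM, against 259 and 222 from PLC cells. Its level was 3.92 (3.69 to 4.17) and 4.44 (4.23 to 4.66) FPKM in Huh7 cells. In PLC cells it was 0.688 (0.607 to 0.777) and 1.11 (0.971 to 1.27) FPKM. The groups of the lines did not overlap, but the share of all genes for which this holds is not given here. SORD2P, a pseudogene copy on the same chromosome, had 30 and 37 reads in the Huh7 libraries, but 63 and 69 in the PLC libraries, where this was 24.3% and 31.1% of the reads of SORD. Reads of such copies can be split between the genes by the counting, so the level of SORD in PLC cells is less certain than that in Huh7 cells.

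KHK, the step that commits fructose, had the opposite order. Huh7 cells gave 103 and 240 reads at 5 and 25 mM, whereas PLC cells gave 349 and 371. Its level was 1.58 (1.29 to 1.92) and 2.62 (2.30 to 2.97) FPKM in Huh7 cells. In PLC cells it was 3.78 (3.39 to 4.20) and 7.58 (6.83 to 8.39) FPKM. Both PLC libraries were above both Huh7 libraries, and within each line the 25 mM library was the higher. On the opposite strand CGREF1 shares 719 exon bases with KHK (23.6% of the exon bases of KHK), and its reads numbered 97 and 134 in the Huh7 libraries and 181 and 129 in the PLC libraries. Whether strand was used in the counting is not given in the sources used here, so the shared bases cannot be assigned to 1 gene with certainty.

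TKFC, at the end of the route, differed least between the libraries. At 5 and 25 mM, 658 and 745 reads came from Huh7 cells and 500 and 421 from PLC cells. Its level was 3.78 (3.50 to 4.08) and 3.04 (2.83 to 3.27) FPKM in Huh7 cells. In PLC cells it was 2.03 (1.86 to 2.22) and 3.22 (2.92 to 3.55) FPKM. The lines overlapped, since PLC cells at 25 mM lay between the levels of the Huh7 libraries. TKFC also shares exon bases with genes of the opposite strand, 925 with CYB561A3 and 416 with DDB1, of which DDB1 had between 6296 and 14403 reads.

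The order of the members within a library differed between the lines. In Huh7 cells at 5 mM it was AKR1B10, AKR1B1, SORD, TKFC and KHK, and the intervals of SORD and TKFC overlapped. In Huh7 cells at 25 mM the order was the same, with overlapping intervals for AKR1B10 and AKR1B1 and for TKFC and KHK. In PLC cells at 5 mM it was KHK, AKR1B1, TKFC, SORD and AKR1B10, with overlap of KHK and AKR1B1, and at 25 mM TKFC stood above AKR1B1 and all intervals were apart. KHK was thus the lowest member in both Huh7 libraries and the highest in both PLC libraries. The order rests on the lengths in the table, which join all annotated exons: 3654 bases for AKR1B1 and 12428 for SORD, against 1361 and 4818 in the canonical transcript. With canonical lengths AKR1B1 came first in Huh7 cells at 25 mM (14.3 FPKM, against 5.95 for AKR1B10) and in PLC cells at 5 mM (8.95 FPKM, against 4.81 for KHK). In PLC cells at 25 mM AKR1B1 then stood above TKFC (5.997 against 5.61 FPKM). KHK remained last in Huh7 cells and AKR1B10 remained last in PLC cells with either length.

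The lines differed in 4 of the 5 members. AKR1B10, SORD and AKR1B1 were lower in PLC cells and KHK was higher, while TKFC did not pass the test. The test was the quasi-likelihood test of edgeR on the counts of all 23217 genes that passed its filter on low counts, with glucose as a second term and Benjamini-Hochberg adjustment, and a gene was called at an adjusted p under 0.05. Of all genes tested 42.9% were called, 21.1% higher in PLC cells and 21.8% lower, so a difference between these lines was common. The median log2 fold change was -0.93 over the 5 members and -0.03 over all genes tested. Of the 8 hepatocyte markers, 7 were lower in PLC cells in the same fit, with a median log2 fold change of -2.55, and their part in the differences of the members was not tested. The libraries of a line differ in glucose and are not replicate cultures, and the fit has 1 residual degree of freedom.

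For AKR1B10 the log2 fold change of PLC against Huh7 cells was -4.61 (SE 0.54, edgeR adjusted p = 1.56e-05). In FPKM, Huh7 cells were 40.03-fold higher at 5 mM and 8.83-fold higher at 25 mM, with 0.1 added to both values. For SORD the log2 fold change was -2.25 (SE 0.27, adjusted p = 2.23e-05), with Huh7 cells 5.10-fold and 3.74-fold higher at 5 and 25 mM. When the reads of SORD2P were added to those of SORD, the mean FPKM of PLC cells was 0.287 of that in Huh7 cells, against 0.234 without them. For KHK the log2 fold change was 1.40 (SE 0.31, adjusted p = 0.00279), with PLC cells 2.31-fold and 2.83-fold higher. With a library left out the glucose term has to be dropped too, since 3 libraries leave no residual degree of freedom for both terms. The call of KHK was lost without the Huh7 library at 5 mM and the glucose term (adjusted p = 0.172), and was kept without the glucose term alone.

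AKR1B1 had a log2 fold change of -0.93 (SE 0.31, adjusted p = 0.0289), and this call was the least stable of the 4. It was lost with DESeq2 (adjusted p = 0.101) and without the glucose term alone (0.0686). It was also lost when that term was dropped together with the Huh7 library at 5 mM (0.233), the Huh7 library at 25 mM (0.246) or the PLC library at 25 mM (0.113). Over the 10 alternatives its adjusted p ran from 0.00409 to 0.246, and its log2 fold change stayed between -1.28 and -0.55. TKFC had a log2 fold change of -0.40 (SE 0.30, adjusted p = 0.3003). Its FPKM ratio of PLC to Huh7 cells was 0.548 at 5 mM and 1.06 at 25 mM.

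**Figure D1:**
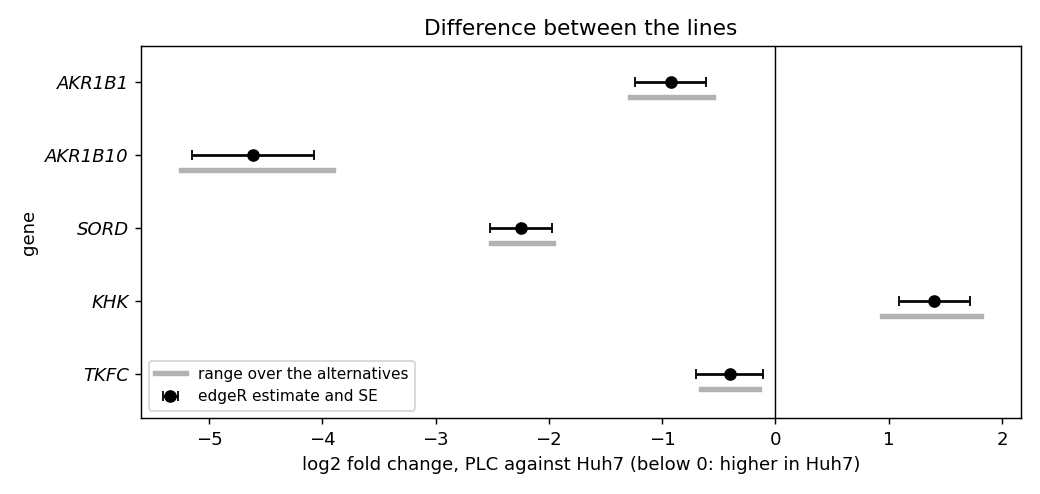
Log2 fold change of PLC against Huh7 cells (horizontal axis) for the 5 genes, as the edgeR estimate with its standard error (black, 4 libraries) and the range over 10 other fits (grey bars). The estimates run from -4.61 for AKR1B10 to 1.40 for KHK, and no bar of the 5 genes crosses 0.

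High glucose went with a higher level of KHK in both lines, and the other members did not have 1 direction past the thresholds in both. The thresholds are those that the study set for long non-coding RNAs. They ask for FPKM over 0.5 and a quotient of FPKM at 25 mM and at 5 mM over 1.5 or under 0.67. Here they were applied to all genes, with 0.1 added to both values and with FPKM over 0.5 in at least 1 library of the line. In Huh7 cells 1 member was past them as higher (KHK), against 14.1% of all genes over the FPKM threshold, and 1 as lower (AKR1B10), against 13.7%. In PLC cells 4 members were past them as higher (AKR1B10, SORD, KHK and TKFC), against 26.2% of all genes, and none as lower, against 17%. These counts compare single libraries and carry no test. The median ratio of the 5 members was 1.03 in Huh7 cells and 1.56 in PLC cells, where hepatocyte markers over 0.5 FPKM had a median ratio of 1.38 and AFP (alpha-fetoprotein) one of 3.30, whose part was not tested. The median ratio of all genes was 1.03 (Huh7) and 1.08 (PLC), and TMM scaling, which sets most genes to no change, shifts log2 ratios by -0.04 (Huh7 cells) and -0.12 (PLC cells).

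KHK was 1.62-fold higher at 25 mM in Huh7 cells (95% interval 1.31 to 2.11, counting error only, without the added 0.1) and 1.98-fold higher in PLC cells (1.73 to 2.33). With TMM scaling the ratios without the added 0.1 were 1.61 and 1.85, past the threshold in both lines. With a pseudocount of 1 the ratio in Huh7 cells was 1.40 and KHK was no longer called there, and with a threshold of 2 it was called in neither line. The ratio in PLC cells was 1.21 times that in Huh7 cells (0.922 to 1.59), an interval that includes 1. KHK and SORD were the 2 members with an interval above 1 in both lines.

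SORD was 1.13-fold higher at 25 mM in Huh7 cells (1.05 to 1.23) and 1.54-fold higher in PLC cells (1.35 to 1.94). The value in PLC cells lies close to the threshold of 1.5, and with TMM scaling it was 1.49 before 0.1 was added, so SORD was no longer called. AKR1B1, the step before it, had a ratio of 1.03 in Huh7 cells (0.908 to 1.18). In PLC cells its ratio was 0.679 (0.544 to 0.820), just outside the threshold of 0.67. As the plain quotient of FPKM, with nothing added, it was 0.6698 and was called lower, and with TMM scaling it was 0.616 without the added 0.1 and was called lower. The members of the polyol pathway proper, AKR1B1 and SORD, thus had ratios on opposite sides of 1 in PLC cells.

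AKR1B10 and TKFC had opposite directions in the lines. AKR1B10 had a ratio of 0.428 in Huh7 cells (0.365 to 0.490), from 487 to 290 reads in a library that was the deeper at 25 mM. In PLC cells its ratio was 1.94 (1.03 to 5.52), but this rests on 12 and 15 reads, its higher level of 0.527 FPKM lies just inside the threshold, and the TMM interval (0.948 to 5.08) includes 1. TKFC had a ratio of 0.810 in Huh7 cells (0.723 to 0.895) and of 1.56 in PLC cells (1.39 to 1.81). With TMM scaling TKFC had a ratio of 1.46 in PLC cells without the added 0.1 and was not called. Whether the lines respond differently could not be tested, since a model with line, glucose and their interaction leaves no residual degree of freedom.

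**Figure D2:**
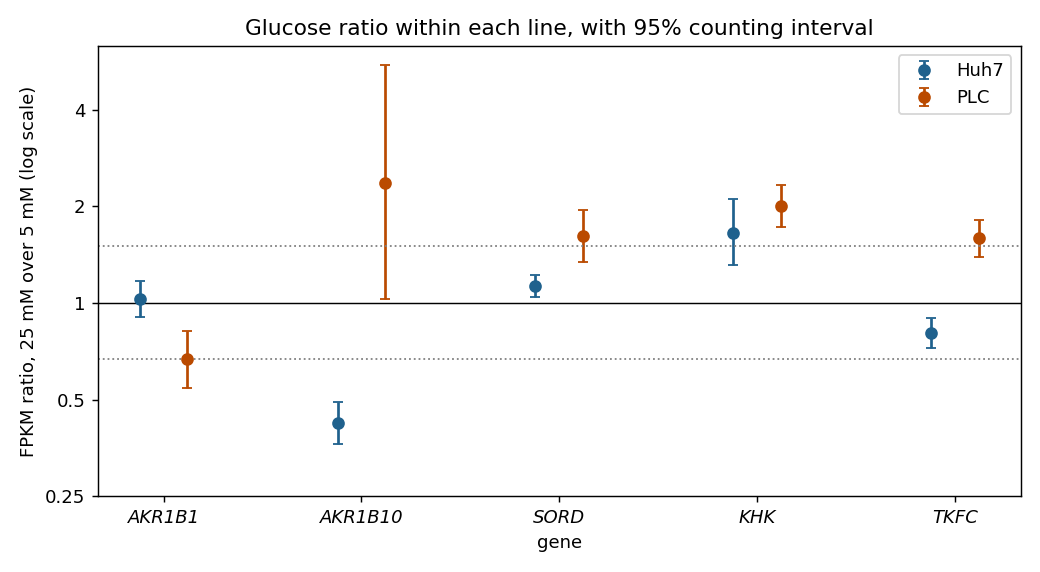
Ratio of FPKM at 25 mM to that at 5 mM (vertical axis, log scale, nothing added) in Huh7 and PLC cells, with exact 95% intervals for counting error and dotted lines at the thresholds of 0.67 and 1.5. KHK lies above 1.5 in both lines, AKR1B10 and TKFC lie on opposite sides of 1, and the wide bar is AKR1B10 in PLC cells, with 12 and 15 reads.

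A glucose change shared by both lines was tested in the same edgeR fit, with line as the other term. None of the 5 members was called, against 0.379% of all genes (88 of 23217). At an unadjusted p under 0.05 there was 1 member, KHK (edgeR log2 fold change 0.79, SE 0.31, adjusted p = 0.459), while 1975 of all genes had such a p. The other members had adjusted p-values of 0.845 (SORD, log2 fold change 0.35), 0.893 (AKR1B1, -0.34), 0.902 (AKR1B10, -0.52) and 0.984 (TKFC, 0.09). Opposite changes in the lines cancel in this fit. DESeq2, limma-voom and the other alternatives also called 0 members.

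Of 7 listed transporters through which fructose can enter the cell 5 could be tested, and 3 were higher and 1 lower in PLC cells, against 21.1% and 21.8% of all genes. SLC2A11 was tested and not called, and SLC2A5 and SLC2A7 had too few reads to be tested. SLC2A2 (GLUT2, the transporter of hepatocytes) had 42 and 80 reads in the Huh7 libraries but 2554 and 2263 in the PLC libraries, or 0.576 and 0.780 FPKM against 24.7 and 41.3 FPKM (log2 fold change 5.59, SE 0.29). SLC2A9 (GLUT9, chiefly a urate transporter) had 0 reads in both Huh7 libraries but 176 and 114 in the PLC libraries, and SLC2A12 was also higher in PLC cells (log2 fold change 2.92, edgeR adjusted p = 0.000472). SLC2A8 (GLUT8, an intracellular sugar transporter) was lower in PLC cells (log2 fold change -1.45, adjusted p = 0.000874). SLC2A5 (GLUT5), the dedicated fructose transporter of the intestine, had 7 reads in all, from PLC cells at 5 mM, and is named here after its values were seen. Within the lines, none of the 3 transporters over 0.5 FPKM in Huh7 cells was past the glucose thresholds, against 14.1% (higher) and 13.7% (lower) of all genes. In PLC cells 2 of 5 were, both higher, against 26.2% of all genes: SLC2A2 (ratio 1.67) and SLC2A12 (3.26). The median log2 fold change of the list between the lines was 2.92, and its median glucose ratios were 0.922 and 1.21.

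Of the genes through which fructose carbon joins glycolysis, and their regulators, 11 of 13 could be tested between the lines. Of these, 1 was higher in PLC cells and 5 were lower, against 21.1% and 21.8% of all genes. HK2 (hexokinase 2, which can also phosphorylate fructose) had 31.8 and 27.2 FPKM in Huh7 cells and 2.34 and 0.168 FPKM in PLC cells (log2 fold change -5.13, SE 0.61). It does not stand for all hexokinases, since the 1 gene of the list that was higher in PLC cells is another hexokinase. MLXIPL, which encodes the carbohydrate-responsive factor ChREBP, had 7.40 and 5.53 FPKM in Huh7 cells and 0.261 and 0.569 FPKM in PLC cells (log2 fold change -4.04, SE 0.40). ALDOC, an aldolase, was also lower in PLC cells (log2 fold change -2.82, adjusted p = 0.000138).

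Glucose ratios of this list were 0 higher and 2 lower of 10 genes over 0.5 FPKM in Huh7 cells, and 4 higher and 2 lower of 10 in PLC cells. The shares of all genes were 14.1% (higher) and 13.7% (lower) for Huh7, and 26.2% and 17% for PLC. The median log2 fold change of the list between the lines was -0.45. The median ratio was 0.822 in Huh7 cells and 1.33 in PLC cells, against 1.03 and 1.08 over all genes. GCKR, the glucokinase regulatory protein that fructose-1-phosphate releases from glucokinase, was past the thresholds as lower in both lines. Its reads went from 421 to 328 in Huh7 cells (ratio 0.561, 0.478 to 0.641) and from 531 to 149 in PLC cells (0.538, 0.438 to 0.636), with an adjusted p of 0.2495 in the shared fit. HK2 had a ratio of 0.110 in PLC cells, from 420 to 16 reads, and of 0.856 in Huh7 cells.

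The glucuronate-xylulose pathway, which SORD joins because it also acts on xylitol, was measured for 7 genes. Of 5 tested genes 2 were higher and 2 lower in PLC cells, against 21.1% and 21.8% of all genes. AKR1A1 (aldehyde reductase) and CRYL1 were higher, with log2 fold changes of 0.82 (adjusted p = 0.0107) and 2.88 (1.19e-05). DCXR (xylulose reductase) and XYLB (xylulokinase) were lower, with log2 fold changes of -1.61 (adjusted p = 0.000893) and -0.60 (0.0471). DCXR had 22.3 and 18.9 FPKM in Huh7 cells and 5.06 and 8.89 FPKM in PLC cells, and its glucose ratios were 0.848 and 1.74. None of the 5 genes over 0.5 FPKM in Huh7 cells was past the glucose thresholds, against 14.1% (higher) and 13.7% (lower) of all genes. In PLC cells 2 of 6 were past them as higher, against 26.2% of all genes. The median log2 fold change between the lines was -0.26, and the median glucose ratios were 0.848 and 1.14.

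Among 11 other aldo-keto reductases 9 were tested, and 3 were higher and 3 lower in PLC cells, against 21.1% and 21.8% of all genes. The AKR1C genes, which reduce steroids, share long stretches of sequence, so that their values are uncertain where the counting splits reads between them. AKR1C2 had 95.2 and 77.8 FPKM in Huh7 cells and 17.97 and 4.73 FPKM in PLC cells (log2 fold change -3.21, SE 0.34). AKR1C1 had 79.0 and 75.4 FPKM in Huh7 cells and 39.6 and 20.9 FPKM in PLC cells (log2 fold change -1.41, SE 0.24). AKR1C3 had the opposite order, with 0.514 and 1.13 FPKM in Huh7 cells and 166 and 128 FPKM in PLC cells (log2 fold change 7.51, SE 0.38). Both AKR1C1 and AKR1C2 were past the glucose thresholds as lower in PLC cells (ratios 0.530 and 0.268). The ratio of AKR1B10 there was 1.94, but it rests on 12 and 15 reads and its TMM interval (0.948 to 5.08) includes 1. Over the list, the glucose thresholds called 2 of 8 genes higher (all genes: 14.1%) and 0 lower (13.7%) for the Huh7 line. For the PLC line they called 1 of 8 higher (all genes: 26.2%) and 2 lower (17%). The median log2 fold change between the lines was 0.72, and the median glucose ratios were 0.910 and 1.14.

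Aldose reductase is known as a target of NFAT5, the factor that answers osmotic stress, and 7 genes of that response were set beside it. SLC6A6, the taurine transporter, was past the glucose thresholds as higher in both lines, with 21.0 and 38.2 FPKM in Huh7 cells (ratio 1.81) and 7.85 and 12.3 FPKM in PLC cells (1.56). With TMM scaling its ratios without the added 0.1 were 1.77 and 1.44, the latter under the threshold of 1.5. AKR1B1 had ratios of 1.03 and 0.679 in the same libraries. Of the 7 genes 1 was past the thresholds as higher in Huh7 cells, against 14.1% of all genes. In PLC cells 2 of 6 were, against 26.2%, and none was lower in either line, against 13.7% and 17%. Median ratios were 1.20 and 1.37. Between the lines 2 of the 7 were higher and 2 lower in PLC cells, against 21.1% and 21.8% of all genes. PNPLA6 and HSPA4L were higher (log2 fold changes 0.91 and 1.20). SLC6A6 and SLC6A12, the betaine transporter, were lower (-1.52 and -2.03), around a median of 0.00 for the list. In the shared fit 0 of the 7 genes had an adjusted p under 0.05, and 2 had an unadjusted p under 0.05. Of all 23217 genes tested, 88 and 1975 had such values.

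**Figure D3:**
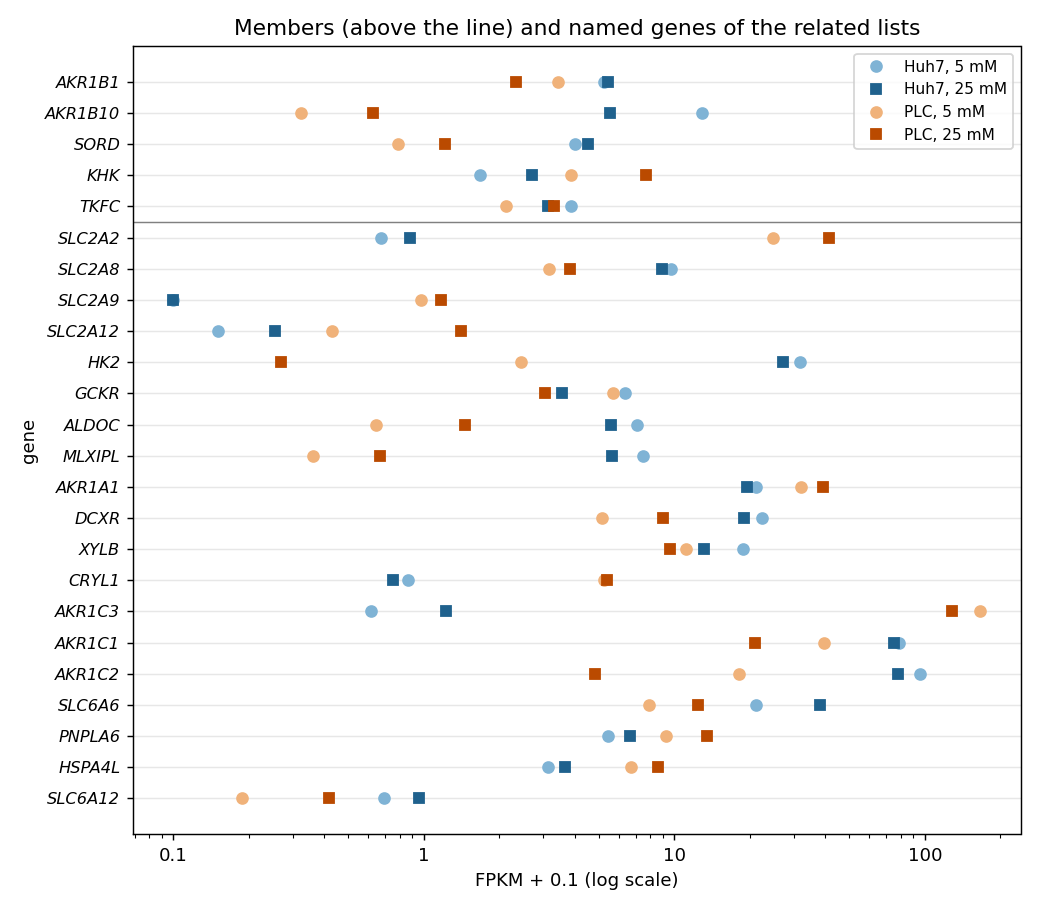
FPKM plus 0.1 (horizontal axis, log scale) in the 4 libraries for the 5 members, above the grey line, and for the named genes of the related lists, with circles for 5 mM and squares for 25 mM. SLC2A2 and AKR1C3 lie far higher in PLC cells, HK2, MLXIPL and AKR1C2 higher in Huh7 cells, and GCKR lies lower at 25 mM in both lines.

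Genes with the profile most like that of a member were sought over the 4 libraries among 17025 genes, by the distance between centred log2(FPKM + 0.1) values. For AKR1B1 they were HACD2, C12orf45 and ZNF761, at distances of 0.04, 0.05 and 0.05. For AKR1B10 they were KCNH7-AS1, ABCC3 and OLFML3, at distances of 0.19, 0.24 and 0.36. ABCC3, a conjugate transporter of hepatocytes, had 7.32 and 3.39 FPKM in Huh7 cells and 0.134 and 0.285 FPKM in PLC cells. For SORD they were AC012513.3, ARHGEF26 and DCBLD2, and for KHK they were CCDC28B, TRMT2B and AC106788.1. TRMT2B had 2.49 and 3.59 FPKM in Huh7 cells and 6.02 and 11.1 FPKM in PLC cells. With 4 libraries, many genes have close profiles, and TKFC varied too little (0.87 on the log2 scale between its extremes) to be matched.

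RefSeq promoter windows (GRCh38.p14) around the transcription start were searched on both strands for the antioxidant response element core TGACNNNGC, the E box CACGTG and the osmotic response element core TGGAAA. Windows of AKR1B1 (2 starts) and TKFC (1 start) were found, and none of the 3 held any of these letters. The windows are short, and sequence further from the start was not searched. The result therefore does not tell whether these genes have such elements elsewhere. Of 35116 promoters 13.3% held the first, 7.26% the second and 20.7% the third.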

How the data were processed

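Total RNA was extracted with TRIzol, rRNA was removed (RiboMinus) and directional libraries were built (NEBNext Ultra). The authors deposited 1 table of read counts per gene, not normalized, with each gene's length in bases. HISAT2, featureCounts and hg38 are named in the submitters' processing notes. The annotation release and the strand setting are not given in the sources used here. Of 59657 data lines, 5 broken lines of ANK2 were left out.

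FPKM was calculated from the count, the table's length and the library total. Intervals of levels are exact Poisson and those of ratios exact (Clopper-Pearson), without the added 0.1. At 95% they cover counting error only. Counts of all genes passing filterByExpr were fitted with edgeR 4.0.16 (TMM, quasi-likelihood, Benjamini-Hochberg) in R 4.3.3, with line and glucose as terms. The code was run on simulated counts with known changes first. DESeq2 1.42.0, limma 3.58.1, other scalings, filters, pseudocounts, thresholds and libraries left out were alternatives. Canonical lengths (GENCODE 44) were added after the data were seen. From each list at most 4 genes are named, those of highest mean FPKM among genes called in either edgeR comparison or past the thresholds the same way in both lines. Outside this rule, the transporters SLC2A5, SLC2A7 and SLC2A11 are named too. The members, lists and rules were chosen with earlier results of these data known. A gene of the lists is counted but not reported by name here.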

Additional observations from a re-analysis of the deposited data

Results flagged for a closer look

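AKR1B10 and TKFC had glucose ratios on opposite sides of 1 in the lines, with counting intervals that exclude 1 in each. The ratio in PLC cells was 5.57 times that in Huh7 cells for AKR1B10 (95% counting interval 2.57 to 12.1) and 1.97 times for TKFC (1.67 to 2.33). With 1 library for each condition this difference was not tested. For AKR1B10 it rests on 12 and 15 reads in PLC cells, and with TMM scaling the interval of its ratio there (0.948 to 5.08) includes 1.

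Named genes of the related lists with the same feature were ALDOC (3.18), MLXIPL (2.92), DCXR (2.07), AKR1A1 (1.33) and AKR1C3 (0.350), given as the ratio in PLC cells over that in Huh7 cells, and for these too the difference was not tested.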

How the results depend on the processing

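Members past the glucose thresholds numbered 2 in Huh7 cells and 4 in PLC cells. With a pseudocount of 1 they numbered 1 (AKR1B10, without KHK) and 1 (KHK), since low levels are then pulled towards no change, and with thresholds of 2 and 0.5 they numbered 1 (AKR1B10) and 0. Under the other alternatives (a pseudocount of 0, TMM or DESeq2 scaling, FPKM over 0.5 in both libraries, FPKM over 1) the count stayed at 2 in Huh7 cells and between 3 and 5 in PLC cells, but the genes differed: TMM and DESeq2 scaling dropped SORD and TKFC and added AKR1B1 as lower. Members that differed between the lines numbered 4, 3 without the glucose term alone, and between 2 and 4 when that term and a library were left out together, with the lowest count without Huh7 cells at 5 mM. AKR1B10 and SORD kept their call and direction in all 10 alternatives, KHK in 9 and AKR1B1 in 5. The FPKM ratio of TKFC turned from 0.776 to 1.06 at 25 mM alone. The labels give no replicate numbers to pair by, and the shared glucose fit compares libraries within each line through its line term. The lone library left in a line is assumed to vary like the others. Depth limits AKR1B10 in PLC cells most.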
